A study of Mus musculus with 24 samples.

Results

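The NR4A orphan nuclear receptors Nr4a1, Nr4a2 and Nr4a3 were described through every H3K27ac peak that the deposited peak table assigned to them. The table gave 63 such peaks among 144154, of which 12 belonged to Nr4a1, 11 to Nr4a2 and 40 to Nr4a3. All 63 were among the 144014 peaks that passed the filter on low counts. A region entered the table because it was called as a peak in these libraries, so the presence of acetylation at the loci is not a result. The family was chosen with some values known. These were the differences between drug and vehicle at the promoter peaks of Nr4a1, and at that of Nr4a2 in mice without shock. Comparisons between drug and vehicle, and the interaction, are therefore given as a description without p-values, and nothing is read from how many of their peaks were called. Shock comparisons use the same libraries, so their p-values at those promoter peaks, and for ratios that contain them, are not independent of that choice.

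NR4A proteins are transcription factors of the nuclear receptor superfamily that act without a known physiological ligand. In neurons they are immediate early genes, induced within a short time of synaptic activity through CREB and its coactivators, which bind cAMP response elements in their promoters. They bind the element NBRE alone, and the proteins of Nr4a1 and Nr4a2 can also pair with retinoid X receptors. In mouse hippocampus the NR4A genes are known as genes needed for long-term memory and for its enhancement by inhibitors of histone deacetylases.

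H3K27ac, the acetylation of lysine 27 of histone H3 found at active promoters and enhancers, was measured by low-input ChIP-seq in NeuN-sorted neuronal nuclei of male C57BL/6J mice at 12 weeks of age. The labels give the dentate gyrus as the source, whereas the sample titles name the hippocampus. Mice were injected intraperitoneally with 30 mg/kg of CI-994, which inhibits histone deacetylases of class I (hence the group name HDACi), or the solvent alone (Veh), 1 h before the test. In contextual fear conditioning (CFC) they spent 3 min in a chamber and then had 2 foot shocks of 0.2 mA, Context mice spent the same time in the chamber unshocked, and all were killed 1 h afterwards. The 4 groups were HDACi-CFC, HDACi-Context, Veh-CFC and Veh-Context, with 3 H3K27ac libraries each. Every group had thus been injected and placed in a chamber. Behavioural protocols were assigned by cage, so an effect of shock and one of cage cannot be told apart. Nothing in the labels says whether replicates came from separate animals or pools, so the p-values measure the spread between these libraries, which may be in part technical.

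The promoters are shown because all 3 genes share a feature in them. Each sequence below covers the 250 bases before a RefSeq transcript start (GRCm38.p6), 5′ to 3′ on the strand of the gene, at chr15:101266596-101266845 (plus strand), chr2:57124004-57124253 (minus strand) and chr4:48045055-48045304 (plus strand). Capitals mark the cAMP response element half-site, TGACG or its reverse complement CGTCA.
Nr4a1: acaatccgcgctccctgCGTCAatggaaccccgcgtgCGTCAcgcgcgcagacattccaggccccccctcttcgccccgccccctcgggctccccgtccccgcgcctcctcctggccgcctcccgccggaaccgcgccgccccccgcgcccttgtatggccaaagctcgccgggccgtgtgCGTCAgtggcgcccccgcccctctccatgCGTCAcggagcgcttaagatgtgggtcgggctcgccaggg
Nr4a2: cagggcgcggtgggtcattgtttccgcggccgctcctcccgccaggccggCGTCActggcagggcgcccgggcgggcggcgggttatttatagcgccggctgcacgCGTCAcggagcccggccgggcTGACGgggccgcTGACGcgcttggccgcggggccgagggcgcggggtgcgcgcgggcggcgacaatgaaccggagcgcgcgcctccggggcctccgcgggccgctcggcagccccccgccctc
Nr4a3: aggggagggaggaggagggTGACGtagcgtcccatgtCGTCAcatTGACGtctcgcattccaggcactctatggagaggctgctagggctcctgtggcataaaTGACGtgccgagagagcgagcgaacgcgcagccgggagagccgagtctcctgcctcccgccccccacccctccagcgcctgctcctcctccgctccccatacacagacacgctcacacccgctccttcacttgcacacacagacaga
Each promoter held 4 half-sites, none overlapping another. Of 32536 distinct promoter windows of this length, 17.9% held at least 1 half-site on either strand and 0.138% held 4 or more. The Nr4a1, Nr4a2 and Nr4a3 windows were 74.4%, 80.0% and 63.6% G or C, and the windows compared were not matched for this. The full palindrome TGACGTCA was in none of the 3 windows and in 1.56% of all windows. The NR4A element AAAGGTCA was likewise in none of the 3, and in 1.35% of all. The Nr4a2 window lies at the start of its longer transcript and not at that of the shorter one, where the largest difference reported here was found. The Nr4a2 and Nr4a3 windows fell wholly in the gap between the peaks on either side of the start, and that of Nr4a1 nearly so.

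Total counts in peaks ranged from 6639158 to 16734757 per library. Levels are given in CPM, counts scaled to the TMM-adjusted total of a library. The share of counts in promoter peaks, defined by an edge within 1000 bp of the start site that the table names, separated CFC from Context libraries. It was 25.18% to 25.39% in HDACi-CFC, 18.32% to 19.64% in HDACi-Context, 24.91% to 26.73% in Veh-CFC and 21.44% to 22.51% in Veh-Context. This shift runs in the same direction as the differences at NR4A promoters below, and its part in them was not tested. All 6 markers of dentate granule neurons had a promoter peak, led by Prox1 at 169 CPM, and none of the 3 endothelial markers had one. Oligodendrocyte markers had one at 5 of 5 genes, mostly through Mbp at 104 CPM. Their summed level was 126 to 148 CPM in HDACi-CFC, 75.4 to 81.9 in HDACi-Context, 133 to 156 in Veh-CFC and 99.1 to 114 in Veh-Context. That sum was thus higher in CFC than in Context libraries, and the granule marker sum was higher in CFC within each drug arm (250 to 329, 165 to 191, 343 to 380 and 242 to 266 CPM in the same order of groups). A promoter peak was present at 3 of 4 astrocyte, 3 of 4 microglial, 3 of 4 CA pyramidal and 1 of 5 interneuron markers. Marker sums for all neurons, CA pyramidal neurons and astrocytes were also higher in CFC within each drug arm. The interneuron sum was so only with CI-994, and the microglial sum overlapped in both arms. The part of cell composition in the results below was not tested, and in sorted bulk nuclei a changed number of acetylated nuclei and a changed signal per nucleus cannot be told apart.

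The loci differed in layout. Nr4a1 had 2 promoter peaks and 10 distal ones on chromosome 15 (mm10), reaching 18.7 kb upstream and 5.3 kb downstream of its start. Nr4a2 had 3 promoter and 8 distal peaks on chromosome 2, within 15.1 kb upstream and 20.5 kb downstream. Nr4a3 had 2 promoter and 38 distal peaks on chromosome 4, out to 272.6 kb upstream and 37.8 kb downstream. Distances here and below are from the peak centre to the start site that the table names. The RefSeq gene (GRCm38.p6) spans 101253902 to 101274795 at Nr4a1 and overlaps 10 of its 12 peaks, so most of the peaks that the table places upstream of the transcript NM_010444 lie inside a longer transcription unit. It spans 57106830 to 57124003 at Nr4a2 and overlaps 5 of 11 peaks, and 48045078 to 48086447 at Nr4a3, overlapping 12 of 40. The table assigns peaks by distance, and no contact with the gene was measured. By the chromatin state that the authors' table gives, 36 of the 63 peaks (57.1%) were active enhancers, against 29.1% of all peaks. A further 11 (17.5%) were strong promoters, against 10.8% of all peaks. Primed enhancers numbered 5 (7.94%), all of them at Nr4a3, against 23.5% of all peaks. No member peak spanned its start site. Per kb of peak, the mean level over the 12 libraries ranged from 1.64 to 3.37 CPM at Nr4a1, 1.78 to 7.37 at Nr4a2 and 1.75 to 7.12 at Nr4a3, against a median of 2.82 over all peaks. The densest Nr4a2 peak lay 15129 bp upstream, in an intron of the noncoding transcript NR_040356, and the densest Nr4a3 peak lay 42111 bp upstream between genes. Both were active enhancers by state, and both were denser per kb than any promoter peak of their gene.

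Shock in mice given CI-994 was accompanied by more H3K27ac along nearly all of the Nr4a1 locus, at the shorter Nr4a2 promoter and around the Nr4a3 start, and by less at 8 distant upstream peaks of Nr4a3. In HDACi-CFC against HDACi-Context, 17 of the 63 peaks rose and 10 fell by edgeR's quasi-likelihood test at a Benjamini-Hochberg adjusted p under 0.05, where 20.2% of all tested peaks rose and 17.8% fell. The counts over the whole family were close to that background, and the split depended on scaling. It was 10 rising and 31 falling with TMM factors taken from promoter peaks alone, which moved the median of all peaks to -0.55 from -0.05 on the log2 scale, and 15 and 18 with library totals (median of all peaks -0.18). Of all 144014 peaks, 12295 rose and 74366 fell with the first of these scalings, and 23366 and 37912 with the second. Among promoter peaks, 5 of 7 rose and none fell, where 45.3% of all promoter peaks rose and 2.02% fell. The median log2 difference over the 7 was 1.33, against 0.42 over all promoter peaks. The rises include both Nr4a1 promoter peaks and the Nr4a2 peak 642 bp upstream, whose drug differences were known at the choice and use these libraries. This count and median are therefore given as a description. At an unadjusted p under 0.05 the counts were also 5 and 0, where 11019 of all 21485 promoter peaks were higher and 704 lower. All 5 rises were called under each of the 20 alternatives run.

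Nr4a1, which encodes NUR77, rose at 10 of its 12 peaks and fell at none, with a median log2 difference of 1.20. The promoter peak centred 769 bp upstream, at chr15:101265532-101266622, had 4.85, 3.02 and 3.70 CPM in the HDACi-CFC libraries, against 1.04, 0.869 and 1.36 CPM in the HDACi-Context libraries. The groups did not overlap, and the log2 difference was 1.84 ± 0.33 (SE, n = 3 each). The promoter peak centred 1696 bp downstream, in intron 1, had 14.1, 12.1 and 13.6 CPM in HDACi-CFC, against 6.40, 4.17 and 3.74 CPM in HDACi-Context. It too was higher in every shocked library, by 1.49 ± 0.19. Drug differences at both promoter peaks were known when the family was chosen and use these libraries. Both values are therefore given as a description without a p, although both peaks are counted as rises. The largest difference at this gene was inside it. The peak centred 5302 bp downstream, in intron 3, had 12.2, 8.94 and 9.24 CPM in HDACi-CFC, against 3.96, 2.14 and 1.97 CPM in HDACi-Context, a log2 difference of 1.93 ± 0.22 (edgeR adjusted p = 3e-08). Upstream, the peaks centred at 2397 bp (1.49 ± 0.33, edgeR adjusted p = 0.00048) and 5625 bp (1.28 ± 0.19, edgeR adjusted p = 1.1e-06) also rose without overlap between the groups. The distal peak with the highest level of Nr4a1, 18719 bp upstream, had 10.5, 12.8 and 11 CPM in HDACi-CFC, against 8.76, 8.17 and 7.41 CPM in HDACi-Context. Its rise of 0.49 ± 0.15 (edgeR adjusted p = 0.0084) was small beside those near the start, was -0.01 when libraries were scaled on promoter peaks, and did not pass without HDACi-CFC replicate 2. The groups did not overlap, all higher in HDACi-CFC, at 8 of the 12 Nr4a1 peaks, against 24.1% of all peaks.

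Nr4a2 encodes NURR1, known for its role in midbrain dopamine neurons, and 1 of its 3 promoter peaks rose. That peak, at chr2:57115093-57116267, is centred 642 bp upstream of the start of the shorter transcript NM_013613, and is a strong promoter by state. It had 10.1, 7.90 and 8.57 CPM in the HDACi-CFC libraries, against 1.25, 0.985 and 0.748 CPM in the HDACi-Context libraries. Every shocked library was several times above every unshocked one. The log2 difference of 3.15 ± 0.25, an 8.90-fold difference, was the largest of any member in any comparison. The 3 low HDACi-Context libraries also make up the drug difference in mice without shock that was known when the family was chosen, so this value is given as a description without a p, although the peak is among the 5 counted above. The promoter peaks of the longer transcript NM_001139509 did not pass. The one centred 1071 bp downstream had 3.33, 1.87 and 2.35 CPM in HDACi-CFC, against 2.43, 2.96 and 4.08 CPM in HDACi-Context, and the groups overlapped (-0.29 ± 0.26, edgeR adjusted p = 0.38). The one centred 591 bp upstream had 1.23, 2.08 and 0.504 CPM in HDACi-CFC, against 0.973, 0.869 and 0.748 CPM in HDACi-Context, again with overlap (0.51 ± 0.49, edgeR adjusted p = 0.42). Whether the promoters differed in response was not tested. Of the 8 distal peaks 1 rose and 2 fell. The weak peak 11986 bp downstream had 1.96, 1.04 and 1.51 CPM in HDACi-CFC, against 0.626, 0.232 and 0.068 CPM in HDACi-Context (2.29 ± 0.55, edgeR adjusted p = 0.0012), with no overlap. Peaks 3588 bp downstream (-0.93 ± 0.33, edgeR adjusted p = 0.024) and 8816 bp upstream (-0.73 ± 0.28, edgeR adjusted p = 0.034) fell. Neither passed by DESeq2 or without several single libraries, and the adjusted p reached 0.11 and 0.13 over the alternatives. The strongest Nr4a2 peak, 15129 bp upstream, had 28.6, 27.6 and 25.9 CPM in HDACi-CFC, against 25.7, 30.1 and 38.4 CPM in HDACi-Context, and the groups overlapped.

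Nr4a3 encodes NOR1, and both of its promoter peaks rose. The intron 1 peak centred 3238 bp downstream, at chr4:48045610-48051477, had 33.7, 29.1 and 28 CPM in the HDACi-CFC libraries, against 14.7, 11.8 and 9.59 CPM in the HDACi-Context libraries. The groups did not overlap, with a log2 difference of 1.33 ± 0.21 (edgeR adjusted p = 0.00019). The peak centred 1155 bp upstream had 9.56, 11.4 and 10.5 CPM in HDACi-CFC, against 4.10, 5.22 and 5.17 CPM in HDACi-Context (1.11 ± 0.16, edgeR adjusted p = 9.3e-07), with no overlap either. Further out, falls outnumbered rises. Of the 25 Nr4a3 peaks more than 10 kb upstream, 1 rose and 8 fell, with a median log2 difference of -0.41, against 15.8% rising and 20.5% falling and a median of -0.14 over all distal peaks. Of all 38 distal peaks of Nr4a3, 3 rose and 8 fell, with a median of -0.12. The share falling over the whole locus was thus close to that of all distal peaks. The primed enhancer 111850 bp upstream had 5.29, 4.26 and 3.78 CPM in HDACi-CFC, against 7.16, 9.79 and 10.9 CPM in HDACi-Context. All shocked libraries lay below all unshocked ones (-1.05 ± 0.19, edgeR adjusted p = 3.8e-05). The peak 197954 bp upstream, in the state that the table names control, had 2.46, 2.18 and 1.93 CPM in HDACi-CFC, against 3.62, 4.40 and 5.31 CPM in HDACi-Context (-1.01 ± 0.23, edgeR adjusted p = 0.00079). The weak intronic peak 27117 bp downstream had 1.38, 1.14 and 2.52 CPM in HDACi-CFC, against 1.18, 0.811 and 0.680 CPM in HDACi-Context. These groups overlapped, and its rise of 0.92 ± 0.38 sat at the threshold (edgeR adjusted p = 0.05). It did not pass by DESeq2 or without HDACi-CFC replicate 3, where it was 0.52, and the adjusted p reached 0.39 over the alternatives. The other peaks that rose lay 8887 bp downstream (0.60 ± 0.15) and 229863 bp upstream (0.86 ± 0.30), and were singled out after their values were seen. The strongest Nr4a3 peak, 42111 bp upstream, had 25.5, 32.1 and 34.1 CPM in HDACi-CFC, against 28.6, 30.7 and 31.0 CPM in HDACi-Context, with overlap.

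**Figure D1:**
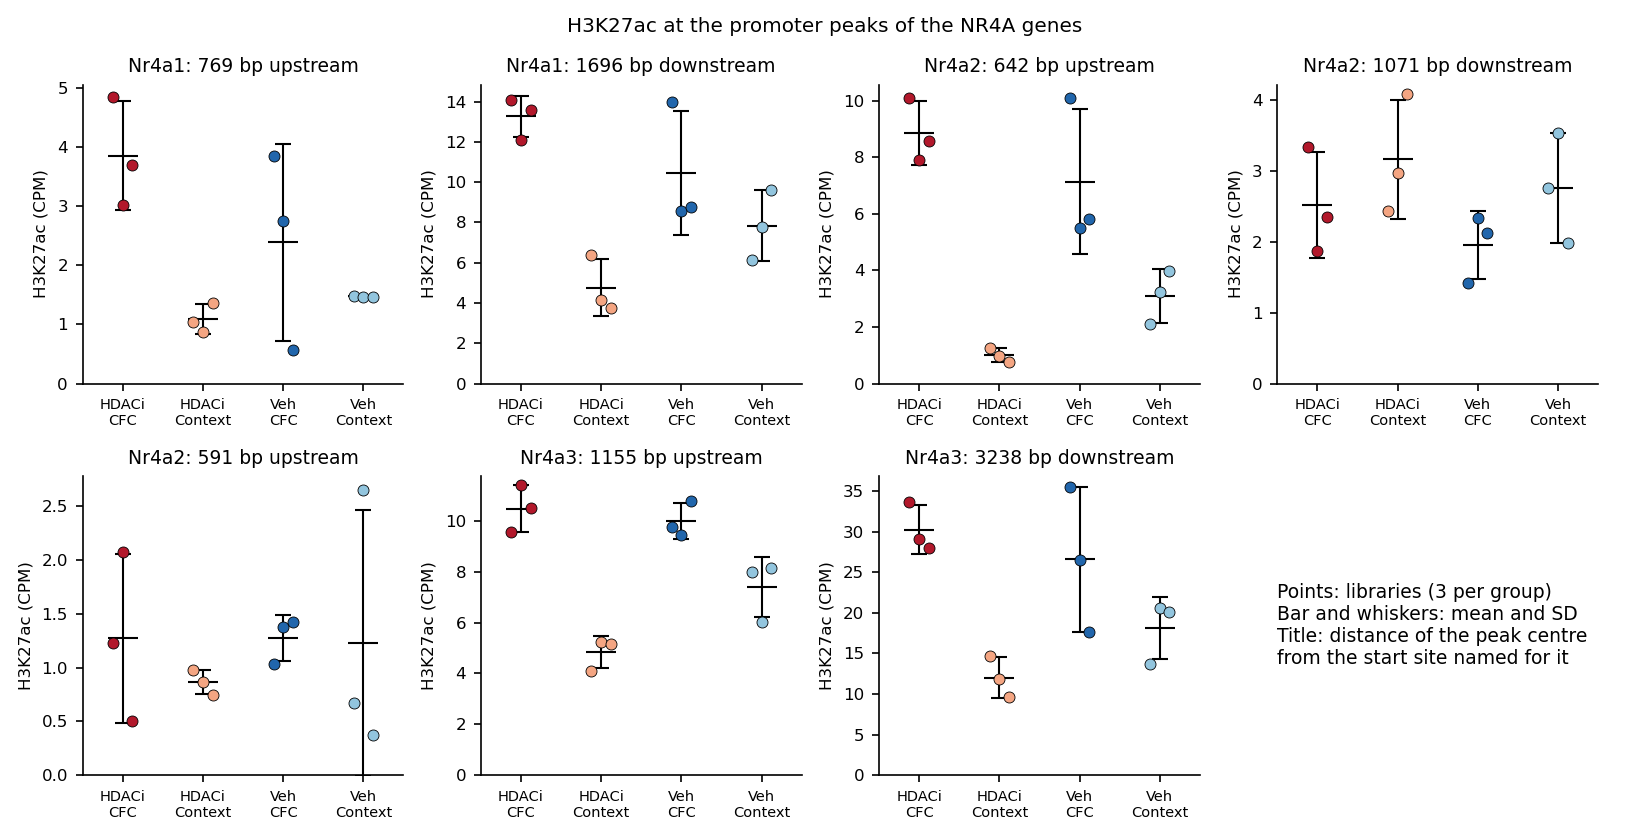
H3K27ac in CPM (vertical axis) at the 7 promoter peaks of the NR4A genes, with a point per library, a bar at the group mean and whiskers of 1 SD (n = 3 per group). HDACi-CFC lies wholly above HDACi-Context at 5 of the 7 peaks, and at 24.1% of all peaks, promoter and distal together. That share over promoter peaks alone was not computed. By the edgeR test 45.3% of all promoter peaks rose in this comparison, against 15.8% of distal ones. At the Nr4a2 peak 642 bp upstream the 3 HDACi-Context libraries lie between 0.748 and 1.25 CPM, below every other library.

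In mice given vehicle, shock was accompanied by differences at fewer NR4A peaks. In Veh-CFC against Veh-Context 5 of the 63 peaks rose and 3 fell, where 4.41% of all tested peaks rose and 2.74% fell. With scaling on promoter peaks, which moved the median of all peaks to -0.25, it was 5 and 16, where 3032 of all 144014 peaks rose and 23195 fell. Among the promoter peaks 1 of 7 rose and none fell, where 14.1% of all promoter peaks rose and 0.47% fell, and the median log2 difference of the 7 was 0.41, against 0.25 over all promoter peaks. At an unadjusted p under 0.05 the promoter peaks numbered 4 higher and 0 lower, where 6812 of all 21485 promoter peaks were higher and 592 lower.

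The promoter peak that rose was again the Nr4a2 peak 642 bp upstream, with 10.1, 5.51 and 5.80 CPM in the Veh-CFC libraries, against 2.09, 3.24 and 3.97 CPM in the Veh-Context libraries. The groups did not overlap and the log2 difference was 1.21 ± 0.24 (SE, n = 3 each; edgeR adjusted p = 0.0026). Without Veh-CFC replicate 1, the highest library of its group there, it was 0.87 and did not pass, and the adjusted p ran from 0.00067 to 0.069 over the alternatives. The Veh-Context libraries also enter the drug difference at this Nr4a2 peak that was known at the choice. Its p-values here are thus not independent of that choice, and the same holds at the Nr4a1 promoter peaks below. The Nr4a1 peak 769 bp upstream had 3.85, 2.76 and 0.566 CPM in Veh-CFC, against 1.49, 1.47 and 1.47 CPM in Veh-Context. Veh-CFC replicate 3 lay below all unshocked libraries there, and the difference of 0.72 ± 0.37 did not pass (edgeR adjusted p = 0.23). Without that library it was 1.14 and did pass, and the adjusted p ran from 0.022 to 0.81 over the alternatives. The Nr4a1 peak 1696 bp downstream had 14.0, 8.59 and 8.78 CPM in Veh-CFC, against 6.12, 7.80 and 9.63 CPM in Veh-Context, with overlap (0.41 ± 0.20, edgeR adjusted p = 0.21). At Nr4a3 the peak 3238 bp downstream had 35.6, 26.6 and 17.7 CPM in Veh-CFC, against 13.7, 20.6 and 20.1 CPM in Veh-Context, and overlapped through Veh-CFC replicate 3 (0.58 ± 0.22, edgeR adjusted p = 0.12). Without that library the difference was 0.79 and passed, and the adjusted p ran from 0.0025 to 0.42 over the alternatives. The peak 1155 bp upstream had 9.76, 9.44 and 10.8 CPM in Veh-CFC, against 7.99, 6.04 and 8.16 CPM in Veh-Context. It was higher in every shocked library, but by 0.40 ± 0.17, which did not pass (edgeR adjusted p = 0.13). The longer Nr4a2 promoter had log2 differences of -0.43 ± 0.31 at 1071 bp downstream and 0.31 ± 0.54 at 591 bp upstream, both with overlap.

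Away from promoters, 3 Nr4a1 peaks rose in vehicle mice. The intron 3 peak 5302 bp downstream had 12.5, 7.53 and 6.65 CPM in Veh-CFC, against 3.73, 4.12 and 3.90 CPM in Veh-Context (1.19 ± 0.23, edgeR adjusted p = 0.0028). The peak 10391 bp upstream had 6.55, 4.03 and 5.52 CPM in Veh-CFC, against 3.06, 1.77 and 2.43 CPM in Veh-Context (1.07 ± 0.24, edgeR adjusted p = 0.0058). The peak 5625 bp upstream had 11, 7.32 and 6.23 CPM in Veh-CFC, against 4.33, 3.68 and 5.44 CPM in Veh-Context (0.83 ± 0.21, edgeR adjusted p = 0.013). None of the 3 overlapped between the groups, and all 3 had also risen in mice given CI-994. Without Veh-CFC replicate 1 the peaks 10391 bp and 5625 bp upstream did not pass, nor did the second without Veh-Context replicate 1 or 2. At Nr4a3 the peak 27117 bp downstream rose by 1.48 ± 0.40 (edgeR adjusted p = 0.018), with 3.34, 2.12 and 2.41 CPM in Veh-CFC, against 0.448, 1.18 and 1.25 CPM in Veh-Context. The peaks 111850 bp upstream (-0.88 ± 0.24, edgeR adjusted p = 0.021) and 193553 bp upstream (-0.64 ± 0.21, edgeR adjusted p = 0.05) fell, and so did a peak 47746 bp upstream (-0.48 ± 0.14), which was singled out after its values were seen. The one 193553 bp upstream sat at the threshold and passed under 7 of 20 alternatives, with an adjusted p of 0.0034 to 0.23. It did not pass by DESeq2, in the fit of only the 2 groups, or without any single library of these groups other than Veh-CFC replicate 2. The one 111850 bp upstream did not pass without replicate 1 or 2 of either group, and the rise 27117 bp downstream did not pass without replicate 1 of either. Leaving out Veh-CFC replicate 1 left 1 rising and 0 falling peaks of the 63, and leaving out Veh-Context replicate 1 left 3 and 0. Over all peaks the first of these fits left 1103 rising and 350 falling, and the second 1258 and 637.

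**Figure D2:**
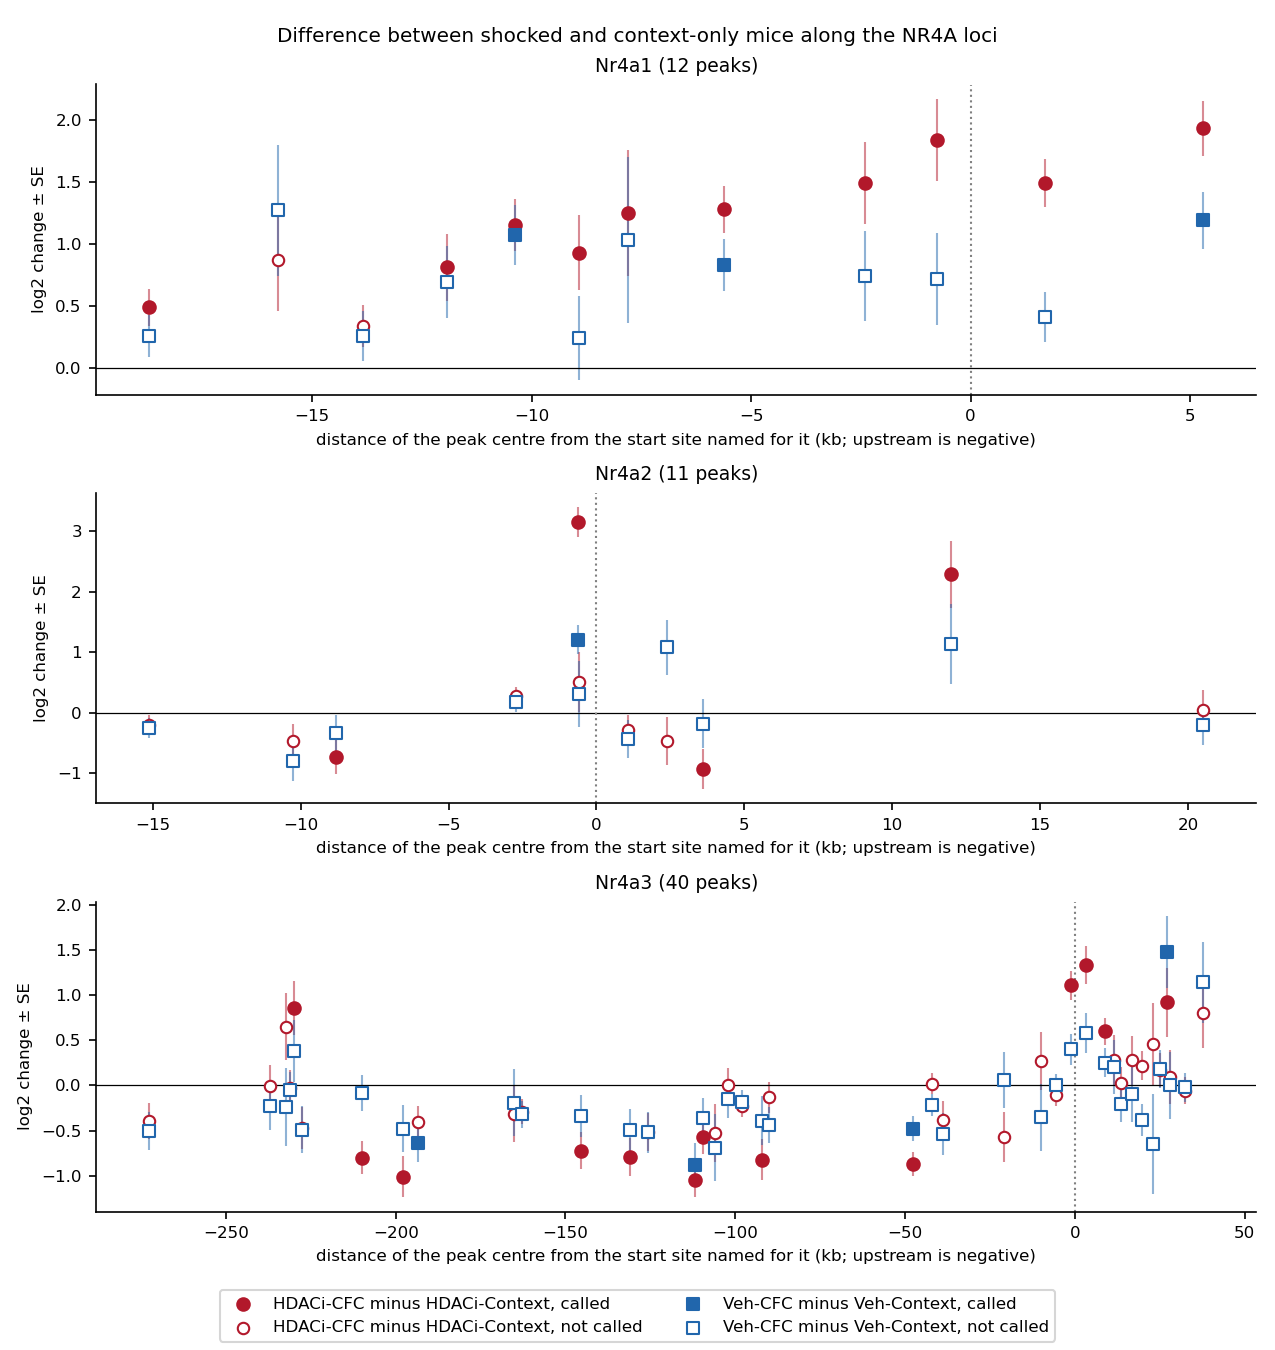
Log2 difference with its SE (vertical axis) at each peak against the distance of the peak centre from its start site in kb (horizontal axis), for HDACi-CFC minus HDACi-Context (circles) and Veh-CFC minus Veh-Context (squares). Filled symbols passed the edgeR test at an adjusted p under 0.05. All 12 Nr4a1 peaks lie above 0 in both comparisons, between 0.34 and 1.93 with CI-994 and between 0.24 and 1.27 with vehicle. Of all 144014 peaks, 67603 were above 0 with CI-994 and 71460 with vehicle.

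Between drug and vehicle in shocked mice, none of the 63 peaks passed the edgeR test in either direction, where 0.483% of all peaks passed as higher and 0.435% as lower in HDACi-CFC. At an unadjusted p under 0.05 there were 5 higher and 2 lower peaks, where 8324 of all 144014 peaks were higher and 9251 lower. DESeq2 also called 0 of the 63, where it called 1168 of all peaks higher and 566 lower. It gave an adjusted p to only 43541 of all peaks in this comparison, so its 0 need not cover all 63. The Nr4a1 promoter peaks had log2 differences of 0.67 ± 0.32 and 0.35 ± 0.19 at 769 bp upstream and 1696 bp downstream. At Nr4a2 the peak 642 bp upstream had 0.33 ± 0.21, the one 1071 bp downstream 0.38 ± 0.31 and the one 591 bp upstream -0.04 ± 0.51. At Nr4a3 the peak 1155 bp upstream had 0.07 ± 0.16 and the one 3238 bp downstream 0.18 ± 0.21. All 7 overlapped between HDACi-CFC and Veh-CFC. Veh-CFC replicate 1 matched the HDACi-CFC libraries at several of them, with 10.1 CPM at the Nr4a2 peak 642 bp upstream and 35.6 CPM at the Nr4a3 peak 3238 bp downstream. Without Veh-CFC replicate 1, 1 of the 63 peaks passed as lower, the Nr4a2 peak 15129 bp upstream, and none passed as higher. Over all peaks 1362 then passed as lower and 1248 as higher.

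In mice without shock, the NR4A promoter peaks had log2 differences between CI-994 and vehicle of -1.62 to 0.25. In HDACi-Context against Veh-Context 1 of the 63 peaks passed as higher and 4 as lower, where 2.73% of all peaks passed as higher and 5.85% as lower. With scaling on promoter peaks, which moved the median of all peaks to 0.30, it was 14 and 1, where 29359 of all 144014 peaks were higher and 3086 lower. Of the 7 promoter peaks 3 passed as lower, where 21.3% of all promoter peaks did, and since the choice of the family used values of this contrast, nothing is read from these counts. The values compared here are those given above for these groups. The Nr4a2 peak 642 bp upstream was lower in every HDACi-Context library than in any Veh-Context library, by a log2 difference of -1.62 ± 0.30, which is a value known at the choice. The Nr4a3 peak 1155 bp upstream was also lower without overlap (-0.64 ± 0.17), although it did not pass without Veh-Context replicate 1 or 3 or with scaling on promoter peaks. The Nr4a1 peak 1696 bp downstream was lower with 1 overlapping library (-0.73 ± 0.20). It did not pass without Veh-Context replicate 2 or 3, without HDACi-Context replicate 2 or 3, or with scaling on promoter peaks. Other promoter peaks had -0.45 ± 0.38 (Nr4a1, 769 bp upstream), -0.57 ± 0.22 (Nr4a3, 3238 bp downstream), -0.25 ± 0.52 (Nr4a2, 591 bp upstream) and 0.25 ± 0.26 (Nr4a2, 1071 bp downstream). The median over the 7 was -0.57, against -0.30 over all promoter peaks. Among distal peaks, the strongest Nr4a2 peak, 15129 bp upstream, was lower (-0.52 ± 0.16), with 25.7, 30.1 and 38.4 CPM in HDACi-Context, against 48.5, 43.1 and 42.8 CPM in Veh-Context. The Nr4a3 peak 111850 bp upstream was higher by 0.71 ± 0.19, with 7.16, 9.79 and 10.9 CPM in HDACi-Context, against 6.64, 6.04 and 4.48 CPM in Veh-Context. Both distal calls were lost under several alternatives, and leaving out single libraries gave 0 to 2 higher and 1 to 6 lower peaks of the 63, the fewest lower ones without Veh-Context replicate 3. Over all peaks these fits gave 1112 to 5764 higher and 3518 to 11767 lower, the fewest of both also without Veh-Context replicate 3.

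**Figure D3:**
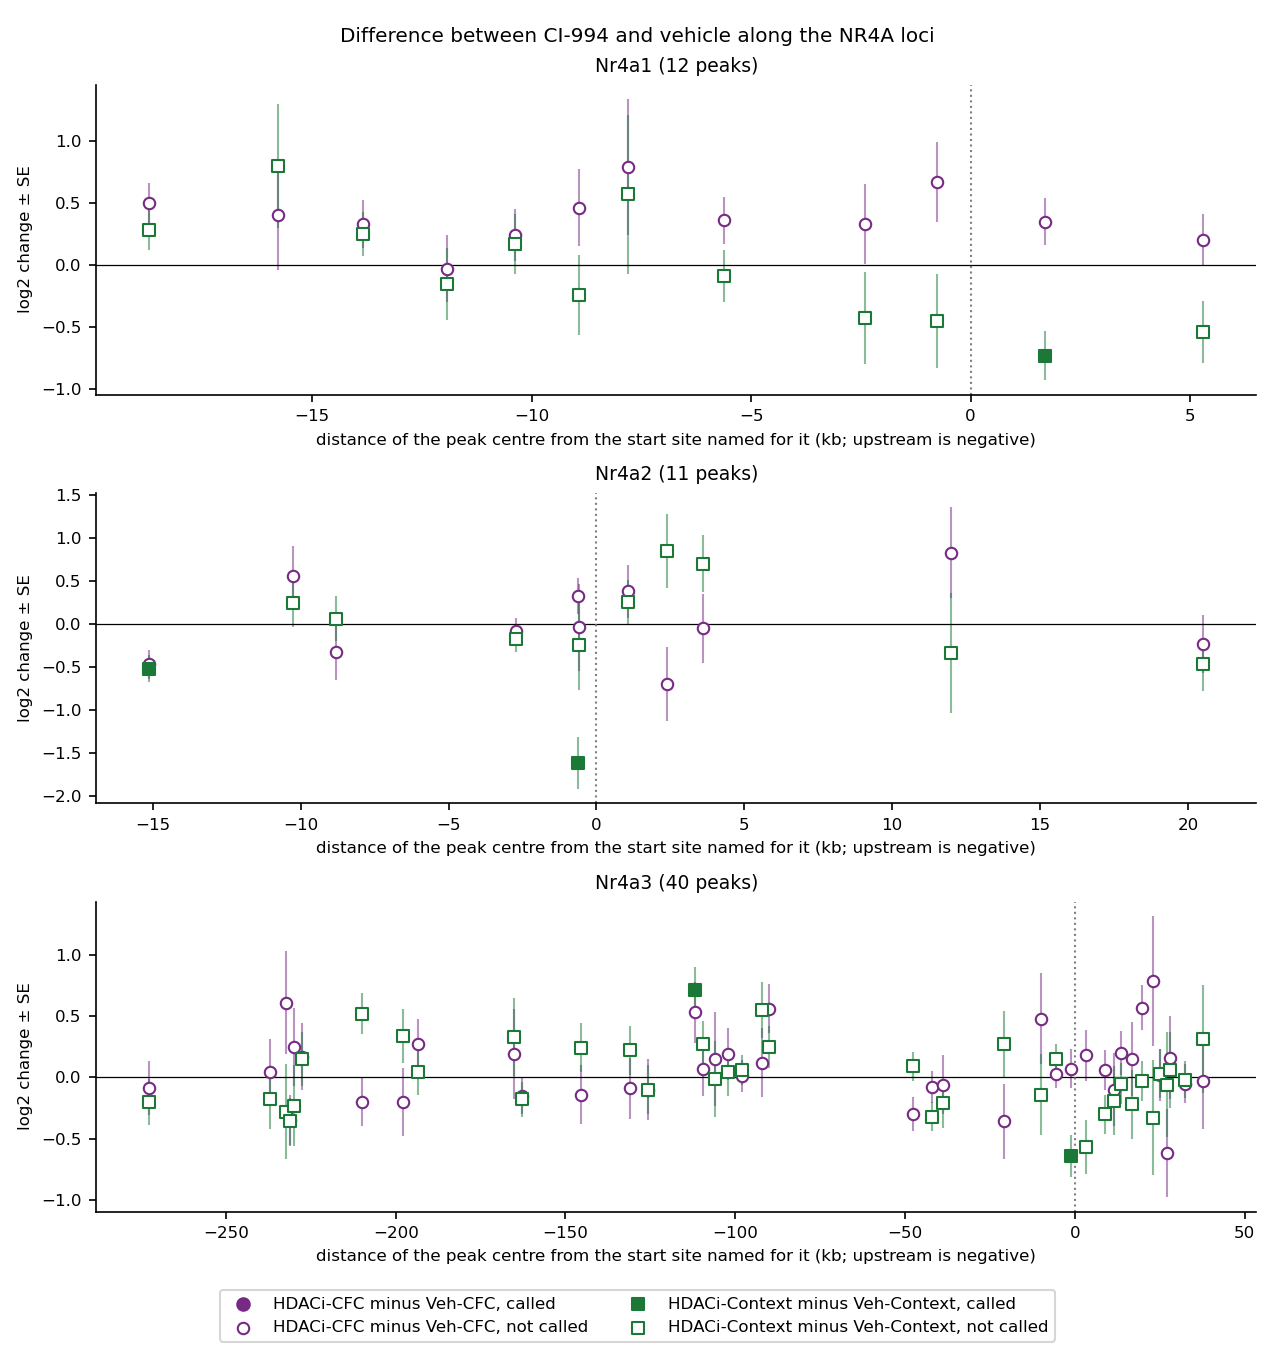
Log2 difference with its SE (vertical axis) between CI-994 and vehicle at each peak against distance from its start site in kb (horizontal axis), for HDACi-CFC minus Veh-CFC (circles) and HDACi-Context minus Veh-Context (squares). No circle is filled, since no peak passed the edgeR test in shocked mice, and the lowest square is the Nr4a2 peak 642 bp upstream at -1.62.

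The difference between these drug effects, that in CFC mice minus that in Context mice, was positive at all 7 promoter peaks. It was also positive at 15597 of all 21485 promoter peaks. Over the 7 it ranged from 0.13 ± 0.41 at the Nr4a2 peak 1071 bp downstream to 1.95 ± 0.37 at the Nr4a2 peak 642 bp upstream. That last value contains the drug difference of -1.62 known at the choice. It was called, as 0.034% of all peaks were as positive and 0.000694% as negative, and was called under 6 of the 18 alternatives that gave it an adjusted p. Nothing is read from that call. The median over all genes with a promoter peak was also positive, at 0.21. The other values were 1.12 ± 0.50 and 1.08 ± 0.28 at Nr4a1 (769 bp upstream and 1696 bp downstream), 0.71 ± 0.23 and 0.75 ± 0.31 at Nr4a3 (1155 bp upstream and 3238 bp downstream), and 0.21 ± 0.73 at the Nr4a2 peak 591 bp upstream. At the Nr4a2 peak 642 bp upstream the order of group means was 8.87 CPM in HDACi-CFC, 0.995 in HDACi-Context, 7.16 in Veh-CFC and 3.10 in Veh-Context. The HDACi-Context libraries stood apart as the lowest, and the CFC groups overlapped each other. All these comparisons share libraries. A low value in HDACi-Context enters the shock difference in drug mice, the drug difference in Context mice and the interaction alike.

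The ratio of distal to promoter counts within a library does not depend on how libraries are scaled against each other. For Nr4a3 its log2 value was 2.61, 2.62 and 2.69 in HDACi-CFC, 3.92, 4.11 and 4.34 in HDACi-Context, 2.39, 2.79 and 3.24 in Veh-CFC and 3.70, 3.47 and 3.39 in Veh-Context. Every CFC library lay below every Context library, with means of 2.72 ± 0.29 in CFC and 3.82 ± 0.37 in Context (SD, n = 6 each). The difference of -1.10 had p = 0.005 in a two-sided exact permutation test within drug groups, the smallest p that its 400 arrangements can give (adjusted p = 0.03 over 6 tests). For Nr4a2 the log2 ratio was 1.78, 1.99 and 1.94 in HDACi-CFC, 3.29, 3.35 and 3.41 in HDACi-Context, 1.79, 2.78 and 2.88 in Veh-CFC and 3.65, 2.70 and 3.31 in Veh-Context. It too was lower in CFC, with a difference of -1.09 (exact permutation p = 0.015, adjusted p = 0.045) and overlap among the vehicle libraries. The Nr4a1 and Nr4a2 ratios contain promoter peaks whose drug differences were known at the choice, so their p-values are not independent of it. The tests for all 3 genes compare with 0, and not with the differences over all peaks and genes given below. Without Veh-Context replicate 1 or 3 the adjusted p was 0.06 at Nr4a3 and 0.09 at Nr4a2, and without Veh-CFC replicate 1 it was 0.06 at Nr4a2, where fewer arrangements remain. With promoter peaks taken to an edge within 2500 bp, the difference was -0.62 at Nr4a3 and -0.77 at Nr4a2 (exact permutation adjusted p = 0.015 for both). Nr4a1 had means of 1.83 ± 0.17 in CFC and 1.99 ± 0.43 in Context (SD, n = 6 each), a difference of -0.16 (exact permutation p = 0.32, adjusted p = 0.32). Its group means were 1.77 in HDACi-CFC, 2.36 in HDACi-Context, 1.89 in Veh-CFC and 1.63 in Veh-Context, so the arms differed in direction, which was not tested. Over all peaks together the same difference was -0.42, and its median over 11624 genes with both kinds of peak was -0.26, below 0 at 74.7% of them. For the drug the differences were 0.30, -0.22 and 0.22 at Nr4a1, Nr4a2 and Nr4a3, against 0.15 over all peaks, given as a description.

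**Figure D4:**
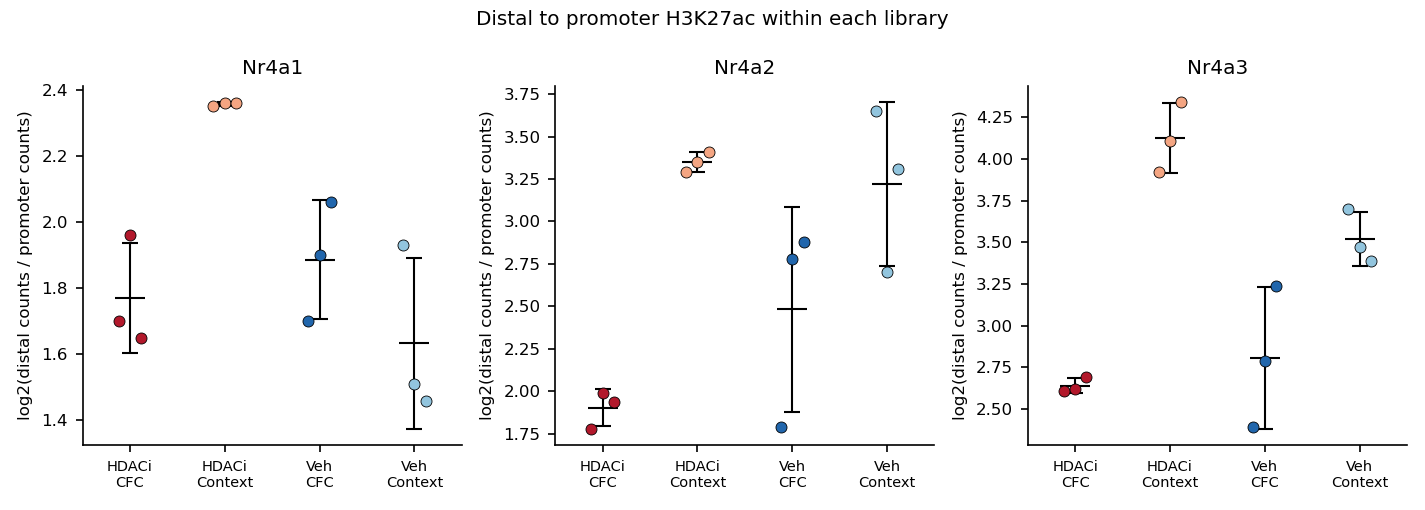
Log2 ratio of distal to promoter counts within each library (vertical axis) for the 3 genes by group, with a bar at the mean and whiskers of 1 SD (n = 3 per group). At Nr4a3 all 6 CFC libraries lie between 2.39 and 3.24, below the 6 Context libraries at 3.39 to 4.34.

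Genes of the surrounding pathway were represented by their promoter peak with the highest mean count. In HDACi-CFC against HDACi-Context 48.9% of 14154 genes rose and 2.07% fell. Of 18 regulators and partners of NR4A, 8 rose and 1 fell, including the activity-regulated factor Mef2d (1.32 ± 0.12), the retinoid X receptors Rxrb (1.40 ± 0.19) and Rxra (1.34 ± 0.20), and the CREB coactivator Crtc1 (0.70 ± 0.14). Of 14 targets and chaperones that have been linked to NR4A in mouse hippocampus, 6 rose and none fell. Among them were Creld2 (1.92 ± 0.34), Calr (0.82 ± 0.13), Xbp1 (0.80 ± 0.14) and Manf (0.78 ± 0.14), which belong to the protein folding response of the endoplasmic reticulum. Of 16 other immediate early genes 13 rose and 1 fell, with Junb (1.38 ± 0.16), Jun (0.84 ± 0.13), Dusp1 (0.78 ± 0.12) and Egr1 (0.76 ± 0.12) having the smallest p. Of 19 other orphan nuclear receptors 14 had a promoter peak, of which 8 rose and none fell, led by Nr2f1 (1.60 ± 0.14) and Nr2f2 (2.46 ± 0.24), which encode the COUP transcription factors. In Veh-CFC against Veh-Context, where 16.4% of genes rose and 0.487% fell, the rises numbered 2 of 18, 5 of 14, 1 of 16 and 5 of 14 in the same order of lists, with none falling. Mef2d (0.68 ± 0.12), Creld2 (1.58 ± 0.31), Junb (0.54 ± 0.16) and Nr2f2 (1.64 ± 0.22) were among them.

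Between drug and vehicle, few members of the lists passed in shocked mice, and those that passed in unshocked mice were mostly lower. In HDACi-CFC against Veh-CFC, where 0.742% of genes were higher and 2.7% lower, Egr1 was higher (0.47 ± 0.12) while Canx (-0.72 ± 0.17) and Nr2f1 (-0.54 ± 0.13) were lower, and no regulator or partner passed. In HDACi-Context against Veh-Context, where 1.06% of genes were higher and 24.2% lower, 3 of 18 regulators, 1 of 14 targets, 3 of 16 immediate early genes and 4 of 14 orphan receptors were lower. Fosb (-1.74 ± 0.27) and Junb (-1.12 ± 0.17), both partners in AP-1, were lower as the Nr4a2 promoter was, while Fos was higher (0.60 ± 0.19).

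Over the 12 libraries, the highest promoter peaks of the members followed each other, with Pearson's r of 0.967 between Nr4a1 and Nr4a2, 0.957 between Nr4a1 and Nr4a3 and 0.950 between Nr4a2 and Nr4a3 on log2 CPM. These are descriptions, since the libraries fall into groups and share the shift in promoter share given above. The genes most like Nr4a1 were Cd151 (0.986), Dab2ip, Tmem201, Ctdspl and Aspdh (0.981). Those most like Nr4a2 were Cdk5r1 (0.990), Smim1, Rab4a, Aspdh and Sfxn3 (0.986). Those most like Nr4a3 were Rps6kl1 (0.997), Gm38671, Adap1, Rxra (0.990) and 5430431A17Rik (0.989). Each member thus had at least 5 of 14154 genes that tracked it more closely than the other members did.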

How the data were processed

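H3K27ac ChIP-seq was analysed from 12 immunoprecipitated libraries, 3 in each of 4 groups. The 12 input libraries listed in the labels were not analysed here. The deposited table holds raw integer read counts per peak. No cell is below 1 and 3620 cells hold exactly 1, so empty cells may have been set to 1. Columns are named by treatment and replicate without an antibody and were taken as the H3K27ac libraries. Per the submitters' processing notes the build was mm10, and the tools included MACS2, HOMER 4.11, DiffBind 2.16.2 with DESeq2 1.28.1, and Bowtie2 2.3.5 with SAMtools 1.9 and Trimmomatic 0.38, without stated roles. Start-site distance, annotation and chromatin state were used as the authors deposited them, and the percent deposited beside the state was not used.

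All peaks were tested together with edgeR 4.0.16 (R 4.3.3) by its quasi-likelihood test (TMM factors, filterByExpr with a minimum count of 10, robust estimation, 1 term per group over all 12 libraries). Calls were made where p, adjusted by Benjamini-Hochberg over 144014 peaks, fell under 0.05. The median biological coefficient of variation was 0.131. CPM and log2 CPM (prior count of 2) are TMM-scaled, without a spike-in, so every difference is relative to the rest of the library. The distal to promoter ratio was tested by exact permutation in Python 3.11.15. Alternatives used DESeq2 1.42.0, limma 3.58.1 for loess offsets, other size factors, no filter, a replicate block, only the groups compared, and each library left out. The tests were checked on simulated data. No pair of libraries of a group differed by as little as counting noise. Promoter sequences came from RefSeq (GRCm38.p6).

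Named with values were every promoter peak, the distal peak of each gene with the highest mean level, and up to 3 called distal peaks per gene and comparison with the largest change. Of each pathway list up to 4 called genes with the smallest p were named. The members and lists were chosen with earlier results of these data known.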

Additional observations from a re-analysis of the deposited data

Results flagged for a closer look

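At the promoter peak 642 bp upstream of the shorter Nr4a2 transcript, subtracting the drug effect in Context mice from that in CFC mice gave 1.95 ± 0.37 on the log2 scale (SE). edgeR's interaction test called this peak, but under only 6 of the 18 alternatives that gave an adjusted p. The difference is made of a log2 difference of 0.33 ± 0.21 for HDACi-CFC minus Veh-CFC and of -1.62 ± 0.30 for HDACi-Context minus Veh-Context, and the second of these was known when the family was chosen. The value is therefore a description, and its call is no independent result. Groups of 3 libraries were not examined for single distant values.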

How the results depend on the processing

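Of 63 peaks, 17 rose and 10 fell for shock in drug mice. Scaling on promoter peaks gave 10 and 31, and library totals 18 falling. For shock in vehicle mice (5 and 3) it gave 16 falling, for drug in Context mice (1 higher, 4 lower) 14 and 1, and for the interaction (1) it gave 0. Library totals, loess offsets and the fit of only the 2 groups gave 2 higher for drug in Context mice. Over all peaks they gave 6279, 5152 and 4660 higher. Library totals, loess offsets and DESeq2 gave 0 for the interaction, DESeq2 giving that peak no adjusted p. The causes were not tested. Single libraries left out gave 12 to 18 rising and 7 to 11 falling for shock in drug mice, 1 to 7 and 0 to 3 for shock in vehicle mice, 0 to 2 higher and 1 to 6 lower for drug in Context mice, 0 to 1 lower for drug in CFC mice and 0 to 3 for the interaction. Over all peaks, 22272 to 30689 rose and 16401 to 27767 fell for shock in drug mice, and 1103 to 9153 and 350 to 5395 in vehicle mice. For drug in Context mice 1112 to 5764 were higher and 3518 to 11767 lower. In CFC mice 86 to 1362 were lower, and 0 to 3477 were called positive for the interaction. The shock difference of the distal to promoter log2 ratio ran from -1.22 to -0.92 at Nr4a2 and from -1.21 to -1.0 at Nr4a3 without single libraries, and was -0.77 and -0.62 with a promoter limit of 2500 bp. Reversed by scaling on promoter peaks, for shock in drug mice, were the Nr4a3 peak 42111 bp upstream (-0.48, adjusted p = 0.0017, its range over alternatives 0.0017 to 0.94) and the Nr4a1 peak 18719 bp upstream (-0.01, adjusted p = 0.96, range 0.0043 to 0.96). Replicate numbers did not pair libraries: 2 of 18 same-number pairs correlated above 0.1, and 6 of 12 libraries correlated best with their own number. With a replicate block 15 rose and 10 fell for shock in drug mice, where 28704 of all 144014 peaks rose and 24947 fell. No peak spans its start site, so the ratio restricted to such peaks gave no value.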
